A study of Mus musculus with 36 samples.

Results

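A set of genes that mark myofibroblast-type cancer-associated fibroblasts (CAFs) were followed through RNA-seq of melanoma-bearing and melanoma-free mice that lack macroH2A histones. They were *Postn*, *Fbln1*, *Lrrc15*, *Cthrc1*, *Comp*, *Tnc*, *Pmepa1*, *Ltbp2*, *Thbs2* and *Fap*, 10 of the 54115 genes to which reads were summed. They were chosen by name as matricellular and myofibroblast genes and not by a threshold on any value. The choice was made with earlier results of these data known. The 36 libraries came from sorted CAFs (4 dKO, 4 WT), immortalized dermal fibroblasts (iDFs; 2 dKO and 2 WT cultures each at 0 and 30 min of serum), bulk tumours (6 dKO, 6 WT) and sorted CD8+ T cells (4 dKO, 4 WT). In dKO mice *H2afy* and *H2afy2*, the genes for macroH2A1 and macroH2A2, are lost from the germline, so that every cell of the animal lacks them and not the fibroblasts alone. All mice that gave tumours, CAFs or T cells, WT included, carried Tyr-CreERT2, a tamoxifen-activated Cre driven by a melanocyte promoter, together with Braf CA/CA, and their background was mixed, predicted to be largely 129S and otherwise B6 and FVB. Topical 4-hydroxytamoxifen on the back skin started the tumours, which were taken 50 days after induction. CAFs were sorted on CD140a (the product of *Pdgfra*) from mice induced at 10 weeks of age, with 2 males (replicates 1 and 2) and 2 females (replicates 3 and 4) of each genotype. CD8+ T cells came from 2 males and 2 females of each genotype, induced at 9 weeks. The bulk tumours comprised 1 female and 5 males among dKO mice and 4 females and 2 males among WT mice, in 3 batches of 2 dKO and 2 WT. The iDFs were male cell lines from skin of animals without tumours. Their replicates are experimental repeats of a line, so their p-values measure only the spread between such repeats and not between animals. For iDFs, "without serum" below means 0 min of serum stimulation and not necessarily serum-free medium. The paper's induction protocol, described for CAF cultures, first held the cells in low serum.

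Matricellular proteins are secreted into the extracellular matrix, where they tune adhesion and signalling more than they bear load. Periostin, tenascin C, the thrombospondins and COMP belong to this class, and they are produced in wounds, fibrosis and tumour stroma. TGF-beta is the best-known inducer of the myofibroblast state of CAFs, in which such proteins appear together with contractile filaments and with the surface proteins LRRC15 and FAP. MacroH2A proteins are histone H2A variants with a large C-terminal macrodomain, found at many repressed domains and at enhancers.

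The total in genes was 20164011 to 29135089 reads per CAF library, 22560359 to 30960401 per iDF library, 22245159 to 85432397 per tumour and 17526618 to 28689963 per CD8+ T cell library. Levels are given below as TPM, which are scaled by transcript length and by the library and can be compared between genes, and differences as TMM-normalized counts scaled to library size (CPM), which are compared within a gene only. A gene was called higher or lower at a Benjamini-Hochberg adjusted p under 0.05 in edgeR's quasi-likelihood test, over all tested genes, and an absolute log2 fold change above 0.75. Reads of the targeted genes remained in every dKO library. In CAFs *H2afy* ran from 48.7 to 55.3 CPM in dKO against 51.8 to 60.7 CPM in WT (log2 fold change -0.17), and those of *H2afy2* from 10.7 to 14.4 CPM in dKO against 17.1 to 24.9 CPM in WT (log2 fold change -0.81, adjusted p = 0.00220 from edgeR). Which part of either gene was deleted is not stated in the labels or methods, so that these reads check no label. The 9 fibroblast markers summed to 100009 to 127558 CPM in dKO CAFs and 82756 to 102664 CPM in WT CAFs, and to 27779 to 31555 CPM in the 4 iDF libraries without serum, while 8 leucocyte markers stayed at or under 22.4 CPM in CAFs and 2.93 CPM in iDFs.

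*Postn* encodes periostin, a secreted protein whose C-terminal region is assembled from alternative exons. A pair of these exons is shown because the transcript estimates of CAFs and iDFs differed most plainly in it. Both lie on the plus strand of chromosome 3 in GRCm38 (Gencode M21), within the coding region, and both hold whole codons. The exon of 81 bases (27 codons, chr3:54380412-54380492) belongs to transcripts Postn-202 and Postn-203, and the exon of 84 bases (28 codons, chr3:54385671-54385754) to Postn-201 and Postn-202. Capitals mark the exon and lower case the 15 coding bases spliced to it on each side.
Postn exon of 81 bases: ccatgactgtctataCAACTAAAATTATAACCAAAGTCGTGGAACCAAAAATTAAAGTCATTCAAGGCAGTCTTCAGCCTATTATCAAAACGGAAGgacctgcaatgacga
Postn exon of 84 bases: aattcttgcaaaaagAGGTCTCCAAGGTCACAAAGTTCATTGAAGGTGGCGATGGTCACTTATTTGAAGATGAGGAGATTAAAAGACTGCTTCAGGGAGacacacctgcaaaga

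Among the 4 full-length *Postn* transcripts, those with the exon of 81 bases held 6.65%, 8.02%, 9.98% and 10.7% of the TPM in the 4 dKO CAF libraries and 4.98%, 4.37%, 4.30% and 6.68% in the 4 WT CAF libraries. In iDFs without serum the same share was 36.03% and 36.9% in dKO and 39.0% and 40.7% in WT. Transcripts with the exon of 84 bases held 6.65%, 6.75%, 5.51% and 8.26% in dKO CAFs, against 4.32%, 4.37%, 3.12% and 3.21% in WT CAFs. In iDFs without serum they held 29.3% and 21.6% in dKO and 31.6% and 24.7% in WT. Periostin RNA of sorted CAFs thus almost always lacked both exons (Postn-204 held 89.3% to 93.4% in dKO and 92.4% to 95.7% in WT), while in iDFs the form without both held 39.6% to 45.9% in dKO and 34.5% to 39.0% in WT. The CAF and iDF ranges lay far apart in both genotypes, and the genotype difference within CAFs was small beside that gap. The ranges of the genotypes did not overlap for the exon of 84 bases in CAFs and met at 6.65% in dKO and 6.68% in WT for the exon of 81 bases. These are Salmon estimates from single reads of 75 bases, given as a description with no test. In tumours the full-length transcripts held a smaller part of the gene's TPM, 37.6% to 61.9%, and their exon shares are not given. The tumour libraries were made with another kit, and CAFs and iDFs differed in RNA input.

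**Figure D1:**
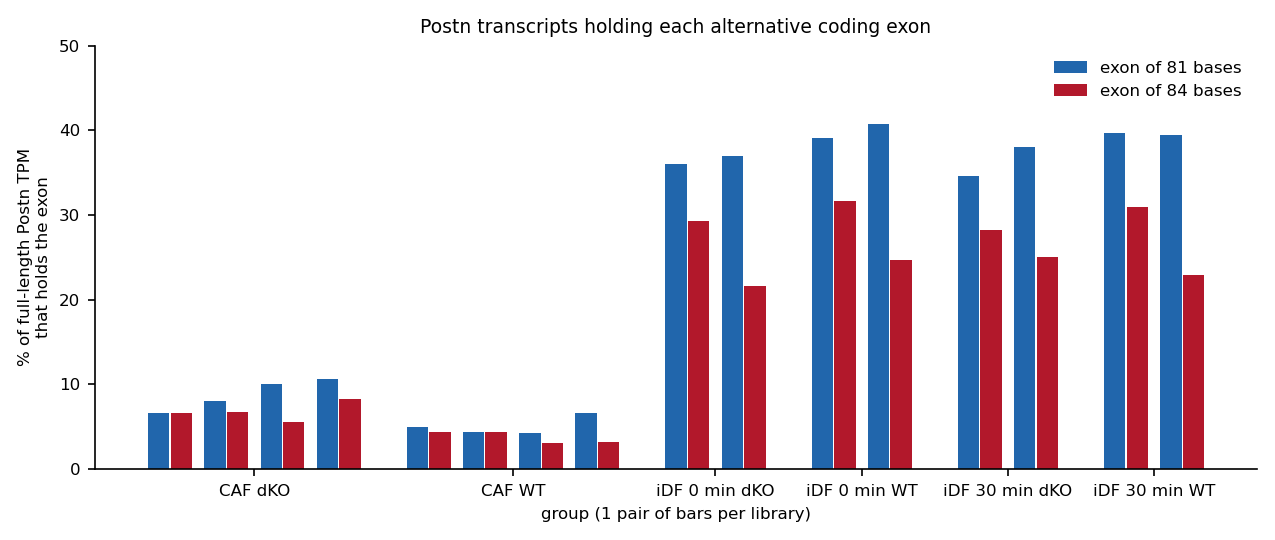
Share of full-length *Postn* TPM (percent, y axis) in transcripts that hold the exon of 81 bases or the exon of 84 bases, in each CAF and iDF library, with dKO left of WT. Every CAF library lies at or under 10.7% and every iDF library at or above 21.6%.

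For the other members the region before the transcription start is shown where the data bear on it. *Ltbp2* and *Fbln1* were the members with the lowest adjusted p and the largest well-counted fold in CAFs, and *Lrrc15* differed in direction between CAFs and iDFs. RefSeq promoters of GRCm38.p6 were at hand for 6 of the 10 members, and 250 bases before the start were searched on both strands for 5 motifs, which were the SMAD core CAGAC, the AP-1 site TGANTCA, the TEAD site GGAATG, the CArG box and the TATA box TATAAA. The sequences are printed 5′ to 3′ on the strand of the gene and leave out bases inside the gene as Gencode M21 has it. Capitals mark CAGAC or its reverse complement, and in *Lrrc15* TGANTCA.
Ltbp2, chr12:84876533-84876741, minus strand: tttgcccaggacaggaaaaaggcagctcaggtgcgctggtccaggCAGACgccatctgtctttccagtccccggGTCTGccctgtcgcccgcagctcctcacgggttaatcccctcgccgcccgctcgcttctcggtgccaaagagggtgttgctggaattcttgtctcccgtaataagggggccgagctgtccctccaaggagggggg
Fbln1, chr15:85205699-85205948, plus strand: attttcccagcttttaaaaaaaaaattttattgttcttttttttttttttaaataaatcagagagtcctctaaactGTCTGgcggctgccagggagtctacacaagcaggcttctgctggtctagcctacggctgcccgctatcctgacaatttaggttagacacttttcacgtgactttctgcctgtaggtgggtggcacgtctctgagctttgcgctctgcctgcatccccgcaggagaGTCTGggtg
Lrrc15, chr16:30283257-30283504, minus strand: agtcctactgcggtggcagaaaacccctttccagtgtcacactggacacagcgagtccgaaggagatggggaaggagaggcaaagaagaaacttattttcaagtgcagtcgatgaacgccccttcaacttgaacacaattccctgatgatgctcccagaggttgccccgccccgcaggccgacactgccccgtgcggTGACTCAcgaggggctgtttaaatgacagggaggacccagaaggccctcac

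CAGAC stood in 3 of the 6 windows (*Fbln1*, *Ltbp2* and *Thbs2*, with 2 matches each) and in 42.2% of all 32851 RefSeq promoters searched in the same way. TGANTCA stood in 1 of 6 (*Lrrc15*), against 6.75% of all promoters. TATAAA stood in 3 of 6 (*Postn*, *Tnc* and *Thbs2*), against 12.4%. It lay close to the start in *Postn*, but near the middle of the window in *Tnc* and, on the other strand, in *Thbs2*. The search took no account of the position or strand of a match. GGAATG, found in 12.6% of promoters, and the CArG box, found in 1.47%, were in none of the 6 windows. A match of this kind is a description of the letters and no test of binding.

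The level of the genes differed widely between members and between cell types. Library kit or RNA input also differed between these sources, so that source and library preparation cannot be told apart. In WT CAFs *Postn* was the 29th most abundant of all 54115 genes by median TPM, *Tnc* the 289th and *Thbs2* the 374th. *Fbln1* (place 484), *Pmepa1* (763), *Cthrc1* (890), *Lrrc15* (1016), *Fap* (1221) and *Ltbp2* (1433) followed, while *Comp* stood at place 16113. Of the 10 members, 8 had their highest WT level in CAFs, 7 of them with no overlap with the next WT cell type or tissue, and 9 had their lowest in CD8+ T cells. The share of all genes with these orders was not computed, so the counts describe the members only. The exceptions at the top were *Postn*, whose median WT TPM was highest in iDFs with a range that overlapped that of CAFs, and *Comp*, whose median was highest in bulk tumours.

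Periostin RNA was abundant in every fibroblast-containing sample. Its TPM ran from 2308 to 4194 in WT CAFs, from 3969 to 4061 in WT iDFs without serum and from 1306 to 2663 in WT tumours, so that CAFs and iDFs overlapped. In WT CD8+ T cells it ran from 0.00 to 26.2 TPM. *Tnc*, the gene of the hexameric glycoprotein tenascin C, ran from 376 to 830 TPM in WT CAFs, 71.9 to 76.2 TPM in WT iDFs and 79.6 to 107 TPM in WT tumours. *Thbs2*, the gene of the anti-angiogenic thrombospondin 2, ran from 342 to 397 TPM in WT CAFs, 227 to 247 TPM in WT iDFs and 38.2 to 62.7 TPM in WT tumours. These 3 secreted proteins therefore followed different orders, with iDFs near CAFs for *Thbs2* and near tumours for *Tnc*. *Comp*, the gene of thrombospondin 5, stayed at or under 1.87 TPM in every library of both genotypes.

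*Cthrc1*, the gene of a secreted collagen triple-helix repeat protein, gave the widest gap between the fibroblast samples. Its median was 162 TPM in WT CAFs and 2.77 TPM in WT iDFs without serum, a ratio of 58.3, and 32.4 TPM in WT tumours. *Ltbp2*, which encodes a microfibril-associated protein of the latent TGF-beta binding family, had a median of 103 TPM in WT CAFs, 7.64 TPM in WT iDFs and 10.7 TPM in WT tumours. *Lrrc15*, a leucine-rich repeat membrane protein that marks TGF-beta-dependent CAFs, stood at 142, 22.4 and 33.0 TPM in the same order, and *Fap*, a membrane serine protease that cleaves after proline, at 120, 25.6 and 32.8 TPM. These 4 genes shared an order in which CAFs lay above both iDFs and tumours. *Fbln1* (fibulin 1, a calcium-binding protein of basement membranes and elastic fibres) was different. Its median was 279 TPM in WT CAFs and 252 TPM in WT iDFs, whose ranges overlapped, and 29.5 TPM in WT tumours. *Pmepa1*, a TGF-beta-induced membrane protein that dampens SMAD signalling, had medians of 188, 146 and 53.0 TPM, and was the member with the highest median in WT CD8+ T cells, where it ran from 22.9 to 26.2 TPM.

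**Figure D2:**
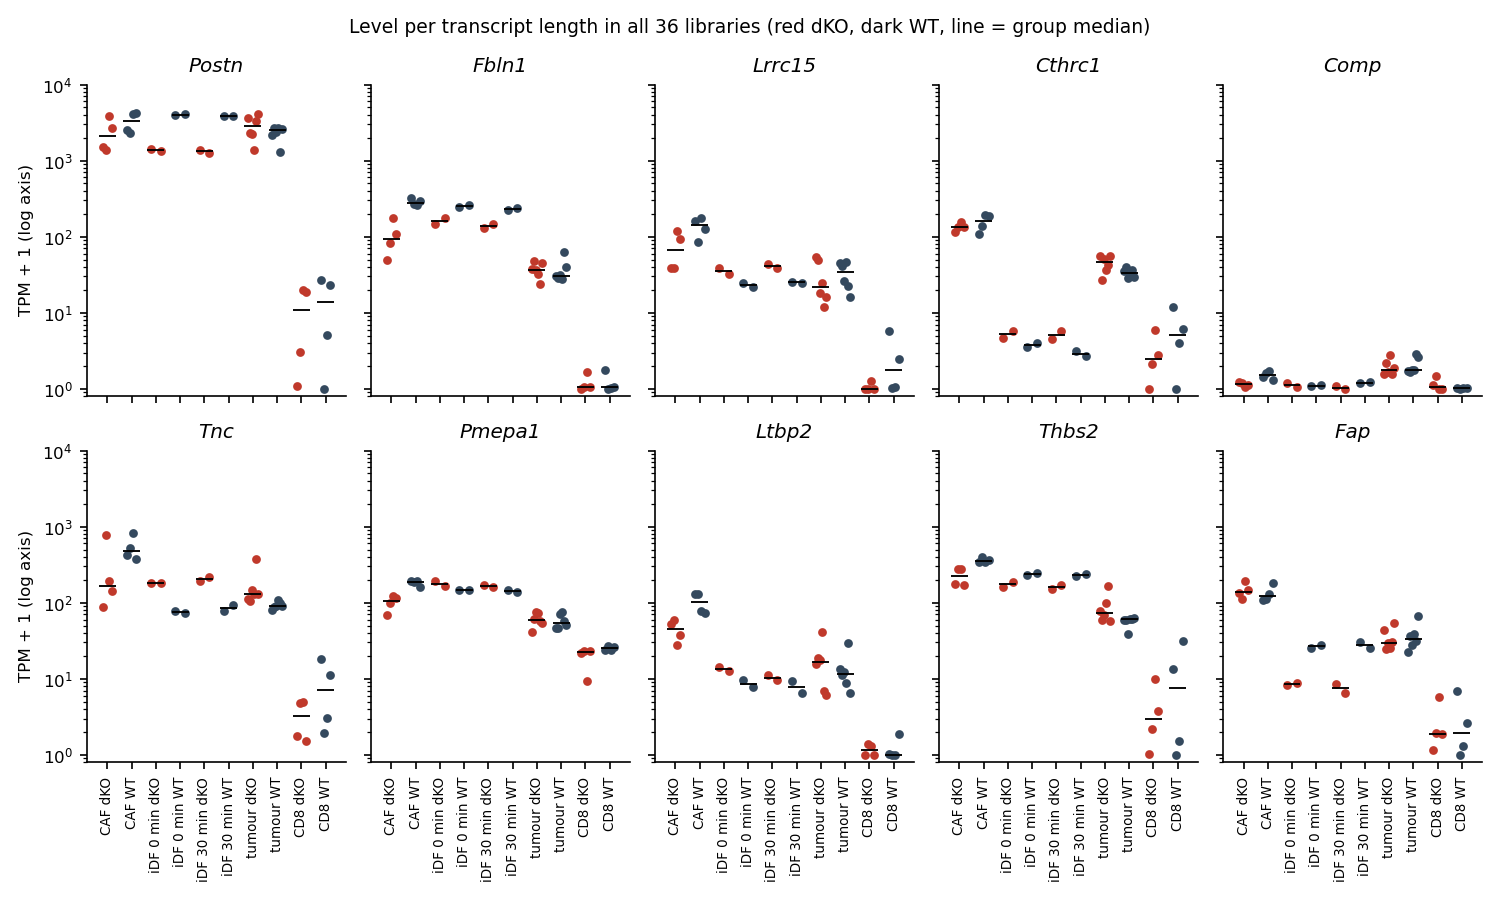
Level of each member (TPM + 1, log axis) in each library, with dKO left of WT in each cell type and a line at the group median. *Postn* lies highest of the members in CAFs, iDFs and tumours, and *Cthrc1* shows the widest gap between CAFs (median 162 TPM in WT) and iDFs (2.77 TPM in WT).

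The first comparison was of dKO with WT CAFs, in a model with sex and genotype. Of the 15786 tested genes, 5.48% were called, 1.45% higher and 4.03% lower. Of the 10 members, 4 were called lower in dKO CAFs (*Ltbp2*, *Pmepa1*, *Fbln1* and *Comp*), and none higher. Of the 10 fold changes, 9 were negative, and the median over members was -0.96 on the log2 scale, against 0.0018 over all tested genes. For 5 members (those 4 and *Thbs2*) every dKO library lay under every WT library, which was so for 6.87% of all tested genes. Since the members were chosen with earlier results of these data known, these shares are no independent support for an effect on the set.

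Of the genes in the TGF-beta and microfibril class, *Ltbp2* had 144, 169, 80.3 and 115 CPM in the dKO CAFs of mice 1 to 4, against 383, 379, 237 and 195 CPM in the WT CAFs. No dKO library reached the lowest WT library, and within each genotype the males had more than the females. The log2 fold change was -1.22 (standard error, SE, 0.13, 95% interval -1.51 to -0.92, adjusted p = 0.00152 from edgeR), which is 2.32-fold lower. *Ltbp2* did not pass in a model without sex (adjusted p = 0.0592 from edgeR). *Pmepa1* had 92.7, 140, 158 and 132 CPM in dKO CAFs, against 260, 270, 255 and 224 CPM in WT CAFs. The groups were well apart, and the log2 fold change was -0.96 (SE 0.16, adjusted p = 0.0107 from edgeR), which is 1.94-fold lower.

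*Fbln1* had 72.7, 109, 224 and 133 CPM in dKO CAFs, against 433, 376, 356 and 381 CPM in WT CAFs. The WT libraries were close to each other, and the dKO libraries were more spread and all under WT. Its log2 fold change was -1.60 (SE 0.29, 95% interval -2.26 to -0.93, adjusted p = 0.0163 from edgeR), which is 3.02-fold lower. The log2 ratio of means was -2.15 in males and -1.04 in females. *Fbln1* did not pass when the WT library of replicate 2 was left out (adjusted p = 0.0522 from edgeR) or without the low-count filter (adjusted p = 0.0664). *Comp* rested on few reads, 7, 7, 2 and 5 in dKO CAFs against 15, 17, 26 and 11 in WT CAFs. Its log2 fold change was -1.78 (SE 0.44, adjusted p = 0.0423 from edgeR), and it did not pass when any of the 8 libraries was left out (adjusted p 0.0539 to 0.116), with the offset for transcript length (0.0565) or in a model without sex (0.0674).

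The remaining members of the matricellular class did not pass. *Thbs2* had 592, 960, 924 and 559 CPM in dKO CAFs, against 1175, 1339, 1192 and 1181 CPM in WT CAFs. The genotypes did not overlap, but the log2 fold change of -0.69 (SE 0.19, adjusted p = 0.0657 from edgeR) missed both thresholds. *Postn* had 2465, 2236, 6050 and 4103 CPM in dKO CAFs, against 3945, 3563, 6698 and 6321 CPM in WT CAFs (log2 fold change -0.52, SE 0.15, adjusted p = 0.0633 from edgeR). Here the female libraries stood above the male ones in both genotypes, and within each sex both dKO libraries lay under both WT libraries. Over both genotypes *Postn* was 0.95 lower on the log2 scale in male CAFs than in female CAFs (SE 0.14, adjusted p = 0.0249 from edgeR), a comparison in which 1.84% of genes were called. It was added after seeing the data.

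*Tnc* was the member with the widest interval in CAFs. It had 372, 3324, 807 and 584 CPM in dKO CAFs, against 1794, 2138, 3533 and 1491 CPM in WT CAFs. In dKO, 3 libraries lay under every WT library and the library of replicate 2 lay within the WT range. The log2 fold change was -0.97 with an interval of -2.62 to 0.68 (adjusted p = 0.431 from edgeR). Without dKO replicate 2 it was -2.07 (adjusted p = 0.0196 from edgeR). Leaving out the same library also moved *Thbs2* past the thresholds, to -0.84 (adjusted p = 0.0430), as did leaving out dKO replicate 3 (-0.85, adjusted p = 0.0347 from edgeR).

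The surface proteins and *Cthrc1* completed the set. *Lrrc15* had 119, 121, 363 and 283 CPM in dKO CAFs, against 497, 254, 547 and 369 CPM in WT CAFs. The groups overlapped because the dKO females lay above the WT male of replicate 2. Within each sex both dKO libraries lay under both WT libraries, in females by little (363 against 369 CPM). The log2 fold change was -1.07 (SE 0.31, adjusted p = 0.0745 from edgeR). *Lrrc15* passed with DESeq2 (-1.08, adjusted p = 0.00178). *Cthrc1* had 64.3, 72.7, 81.3 and 71.9 CPM in dKO CAFs, against 57.4, 72.7, 108 and 96.3 CPM in WT CAFs (log2 fold change -0.17, adjusted p = 0.441 from edgeR). *Fap* had 161, 137, 239 and 175 CPM in dKO CAFs, against 130, 136, 159 and 198 CPM in WT CAFs (log2 fold change 0.19 with an adjusted p of 0.358 in edgeR). The ranges overlapped for both genes, and *Fap* was the only member with a positive fold change.

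**Figure D3:**
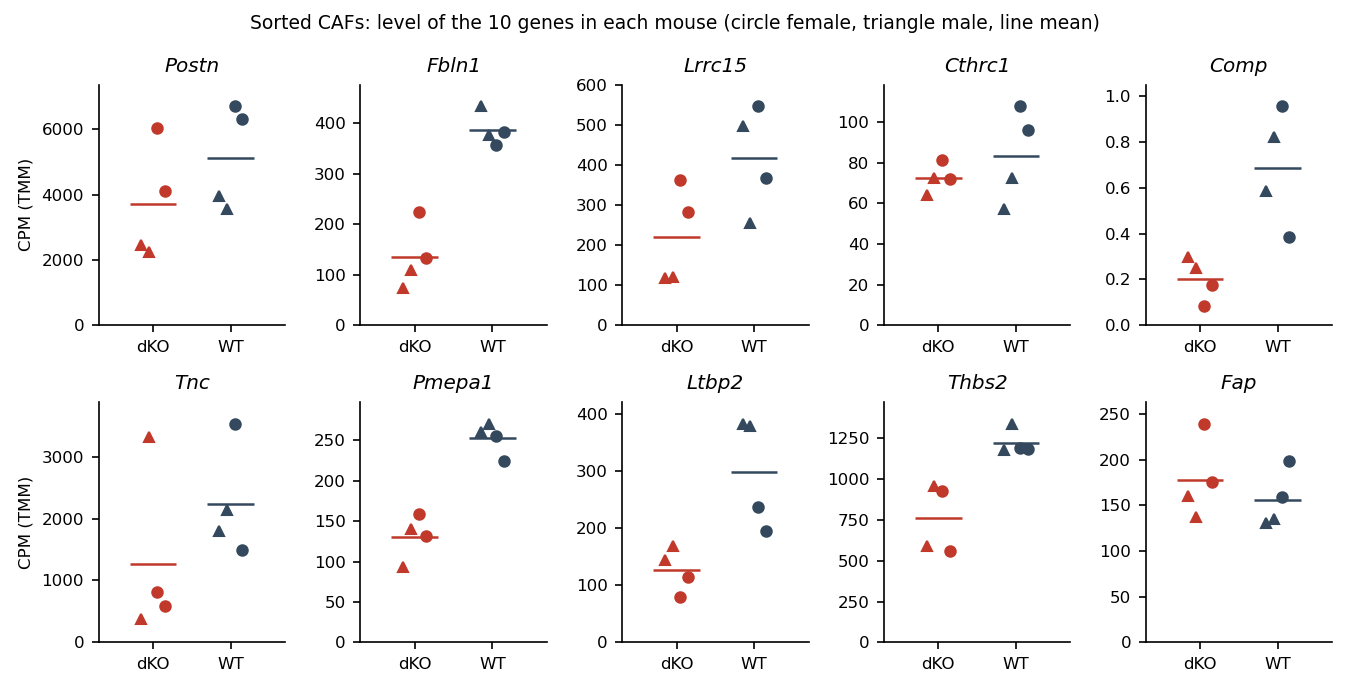
CPM of each member (linear axis from 0) in the 8 CAF libraries, with dKO left of WT, circles for females, triangles for males and a line at the mean. For *Fbln1*, *Comp*, *Pmepa1*, *Ltbp2* and *Thbs2* the 4 dKO libraries all lie under the 4 WT libraries, and dKO replicate 2 of *Tnc* stands at 3324 CPM.

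Markers of other cell types also moved between these sorted samples. The 5 keratinocyte markers summed to 12.2 to 41.5 CPM in dKO CAFs and 60.8 to 85.4 CPM in WT CAFs, with no overlap, and the 8 melanocytic markers to 131 to 522 CPM in dKO CAFs and 521 to 769 CPM in WT CAFs. Pericyte markers ran from 657 to 1082 CPM in dKO and 556 to 922 CPM in WT, and endothelial markers from 150 to 335 CPM in dKO and 193 to 412 CPM in WT. Their part in the results above was not tested. In sorted cells as in bulk tissue, fewer cells of a type and less RNA per cell cannot be told apart. The effect of genotype did not differ between males and females for any gene at the thresholds (0 of 15786 called by edgeR in a comparison added after seeing the data). Among members the unadjusted p of that difference was under 0.05 for *Fbln1*, *Lrrc15* and *Cthrc1* (0.0286, 0.0483 and 0.0421 in edgeR's quasi-likelihood test, with an adjusted p of 0.989 for each).

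Other genes of the same pathways were set beside the members, in lists also written with earlier results of these data known. The lists share some genes, so that their counts are not independent. Over all tested genes in CAFs, 1.45% were called higher and 4.03% lower. Of 24 further myofibroblast CAF markers, 4 fell in dKO CAFs and none rose, and the list's median was -0.38 on the log2 scale with 21 members negative. *Grem1*, an extracellular BMP antagonist, fell to 3.04 ± 0.36 CPM in dKO CAFs, against 19.9 ± 5.64 CPM in WT CAFs (SD, n = 4 each; log2 fold change -2.67 with an adjusted p of 8.60e-05 in edgeR). The matrix metalloproteinase genes *Mmp13* (-1.80) and *Mmp11* (-1.29) and the heparan sulfate endosulfatase gene *Sulf2* (-1.05) were the others. Of 15 contractile genes and 26 genes of the TGF-beta pathway, none was called in either direction, with medians of -0.00087 and -0.03. With 5.48% of all tested genes called, lists of this size would hold few called genes, so that the absence of calls says little. *Acta2*, the smooth muscle actin of myofibroblasts, stood at 70.9 ± 23.3 CPM in dKO CAFs and 81.2 ± 11.1 CPM in WT CAFs (log2 fold change -0.20, adjusted p = 0.666 from edgeR).

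Among 25 other tested genes of the matricellular families, 3 rose and 1 fell, with a median of -0.01. *Tgfbi*, a close relative of periostin, rose to 1869 ± 1007 CPM in dKO CAFs, against 595 ± 154 CPM in WT CAFs (log2 fold change 1.60, adjusted p = 0.0365 from edgeR). *Thbs1*, a relative of *Thbs2* that activates latent TGF-beta, rose to 2246 ± 304 CPM in dKO CAFs, against 1239 ± 254 CPM in WT CAFs (0.87, adjusted p = 0.00901). *Sparcl1* also rose (0.77), and *Spp1*, the gene of osteopontin, fell (-2.05, adjusted p = 0.0345 from edgeR). Of 15 elastic fibre genes *Fbn2* rose (1.24) and *Loxl4* fell (-0.88). Of 20 inflammatory CAF markers, *Ccl11* (1.25), *Il6* (1.00), *Cxcl1* (0.95) and *Ccl2* (0.94) rose and none fell, and the median was 0.46. Of 6 relatives of FAP, *Dpp6* fell. *Acta2*, *Sparcl1*, *Sulf2*, *Ccl2* and *Dpp6* were named after their values were seen.

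The second comparison was of dKO with WT iDFs, fibroblasts that were grown without tumour. *Comp* had 0 to 7 reads per library and was not tested, so that 9 members entered. Without serum, 9.04% of the 15047 tested genes were called, 3.93% higher and 5.11% lower, and 3 of the 9 members were. *Postn* and *Fap* were lower in dKO iDFs and *Tnc* was higher. At 30 min of serum 8.96% of genes were called, 3.88% higher and 5.08% lower, and 5 of the 9 members, the same 3 with *Lrrc15* and *Cthrc1* higher. With 2 libraries in each group, 69.3% of all genes had no overlap between genotypes at 0 min and 65.3% at 30 min, so that absence of overlap says little here.

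*Postn* had 2474 and 2361 CPM in dKO iDFs without serum, against 6653 and 6837 CPM in WT iDFs, and 2546 and 2382 CPM against 6787 and 6834 CPM at 30 min. The values within a group were close, and the log2 fold change was -1.48 at 0 min (SE 0.05, adjusted p = 1.72e-07 from edgeR) and -1.47 at 30 min. *Fap* had 10.7 and 8.67 CPM in dKO iDFs without serum, against 33.3 and 34.4 CPM in WT iDFs. Its log2 fold change was -1.80 (SE 0.11, adjusted p = 7.75e-06 from edgeR), which is 3.48-fold lower. At 30 min it had 11.2 and 9.10 CPM in dKO against 35.6 and 34.2 CPM in WT (-1.78). *Tnc* had 807 and 807 CPM in dKO iDFs without serum, against 323 and 303 CPM in WT iDFs, and 894 and 1048 CPM against 336 and 413 CPM at 30 min. This is the opposite order to the *Postn* and *Fap* values, with a log2 fold change of 1.37 at both times (SE 0.12 and adjusted p = 0.000331 from edgeR at 0 min).

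*Lrrc15* had 125 and 103 CPM in dKO iDFs without serum, against 74.5 and 65.6 CPM in WT iDFs, and 147 and 132 CPM against 79.5 and 78.6 CPM at 30 min. The dKO cultures were higher at both times, with log2 fold changes of 0.70 (adjusted p = 0.00237 from edgeR) and 0.82 (adjusted p = 0.00108), of which only the second was above 0.75. It was 0.75, under the threshold, without dKO replicate 1 at 30 min. *Cthrc1* was scarce, with 1.82 and 2.84 CPM in dKO iDFs without serum against 1.46 and 1.69 CPM in WT iDFs, and 2.23 and 3.05 CPM against 1.24 and 1.03 CPM at 30 min. Its log2 fold change at 30 min was 1.21 (SE 0.30, adjusted p = 0.0132 from edgeR), and it did not pass without WT replicate 2 (adjusted p = 0.0790) or without dKO replicate 2 at that time (adjusted p = 0.0755).

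Besides *Lrrc15*, 4 members passed the adjusted p of edgeR without serum but not the fold threshold. *Fbln1* had 196 and 231 CPM in dKO iDFs, against 304 and 342 CPM in WT iDFs (log2 fold change -0.60, adjusted p = 0.0158). *Thbs2* had 576 and 686 CPM in dKO against 791 and 857 CPM in WT (-0.38, adjusted p = 0.0447). *Pmepa1* had 290 and 267 CPM in dKO against 219 and 203 CPM in WT (0.40, adjusted p = 0.000823). *Ltbp2* had 42.2 and 40.6 CPM in dKO against 33.9 and 26.3 CPM in WT (0.46, adjusted p = 0.0410). At 30 min these 4 kept their signs, with 191 and 233 CPM in dKO against 298 and 325 CPM in WT for *Fbln1* (-0.56), 573 and 677 against 795 and 861 CPM for *Thbs2* (-0.41), 281 and 265 against 213 and 204 CPM for *Pmepa1* (0.39), and 37.7 and 38.4 against 29.3 and 23.2 CPM for *Ltbp2* (0.53). The members were thus split in iDFs, 5 positive and 4 negative at both times, with a median of 0.40 at 0 min, against -0.0014 over all tested genes.

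Serum for 30 min moved no member past the thresholds in either genotype, while 3.28% of genes were called in dKO iDFs and 1.95% in WT iDFs. The members' log2 changes with serum ran from -0.12 to 0.30 in dKO and from -0.47 to 0.26 in WT. No member differed in its serum change between genotypes (2 of 15047 genes called, 0.0133%), and *Cthrc1* had the largest such difference, 0.65 (adjusted p = 1.00 from edgeR). Genes of neighbouring lists did respond at this time. Of 14 contractile genes, 6 rose with serum in dKO iDFs and 6 in WT iDFs, and of 17 inflammatory CAF markers 7 rose in dKO and 6 in WT, with none falling in either list.

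In the same iDFs, 8 of 23 further myofibroblast CAF markers were called higher and 2 lower in dKO without serum, and the same counts held at 30 min. Some of the markers called higher are also counted among the contractile genes below. *Sulf1*, an endosulfatase gene, rose to 53.5 ± 2.98 CPM in dKO, against 8.13 ± 0.39 CPM in WT (SD, n = 2 each; log2 fold change 2.71 with edgeR). *Grem1* rose to 18.9 ± 0.24 CPM in dKO iDFs, against 3.76 ± 0.06 CPM in WT iDFs (2.32), while it fell in dKO CAFs. *Col11a1*, a fibrillar collagen gene, fell to 162 ± 2.29 CPM in dKO, against 1030 ± 27.6 CPM in WT (-2.67). Of 14 contractile genes, 6 rose (*Acta2*, *Tagln*, *Myl9*, *Cnn1*, *Tpm1* and *Lmod1*) and 2 fell at 0 min, with 10 positive and a median of 0.56. *Acta2* was thus called higher in dKO iDFs, and also at 30 min, but was not called in CAFs. Of these, *Acta2*, *Tagln*, *Myl9*, *Cnn1* and *Tpm1* were named after their values were seen. *Lmod1*, the gene of an actin-nucleating leiomodin, rose (1.54), while *Mylk*, the gene of myosin light-chain kinase, and *Synpo2* fell (-1.68 and -1.59).

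The other lists in iDFs moved in both directions. Of 25 TGF-beta pathway genes, *Tgfb3*, the gene of a ligand, rose at 0 min (1.53), to 165 ± 15.3 CPM in dKO, against 57.2 ± 2.73 CPM in WT. At 30 min *Tgfb3* had a log2 fold change of 2.17 and stood at 374 ± 42.7 CPM in dKO, against 82.9 ± 4.85 CPM in WT. Of 21 matricellular relatives, 4 rose and 4 fell at 0 min. *Tnn*, the gene of tenascin W, rose (2.73), as did the CCN family gene *Ccn5* (1.88), and *Ccn3* fell (-1.60). Of 14 elastic fibre genes, 2 rose and 4 fell, with *Eln*, the elastin gene, at -2.50, *Mfap2* at -1.58 and *Emilin2* at -1.56. Of 17 inflammatory CAF markers, 2 rose and 4 fell at 0 min, with *Ly6c1* (2.17) and *Ly6a* (1.60) up and the dermatopontin gene *Dpt* down (-1.10). At 30 min the counts of this list were other, as 4 were called higher and 5 lower in dKO, with a median of -0.06.

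The third comparison was of dKO with WT bulk tumours, in a model with batch, sex and genotype. Only 8 of 18097 genes were called (0.0442%; 1360 had an unadjusted p under 0.05 in edgeR), and none of the 10 members was. All members overlapped between genotypes, where 0.669% of all genes did not, and the median over members was 0.0093 on the log2 scale, against 0.019 over all tested genes, with 5 members positive and 5 negative. *Thbs2* and *Tnc* had the smallest p-values. *Thbs2* had 341, 272, 313, 497, 768 and 278 CPM in the dKO tumours of mice 1 to 6, against 291, 276, 199.6, 292, 293 and 272 CPM in WT tumours. In dKO, 4 tumours lay above all WT tumours, and the other 2 among the WT values. The log2 fold change was 0.77 (SE 0.19, adjusted p = 0.367 from edgeR), with ratios of 0.93, 0.21 and 0.52 on the log2 scale within batches 1, 2 and 3. DESeq2 called it (adjusted p = 0.0291).

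*Tnc* had 603, 590, 832, 787, 2075 and 746 CPM in dKO tumours, against 480, 485, 551, 631, 562 and 457 CPM in WT tumours. In dKO, 4 tumours lay above every WT tumour, with the highest value in replicate 5, the only dKO female. The log2 fold change was 0.92 (SE 0.28, adjusted p = 0.463 from edgeR), with within-batch ratios of 1.27, 0.37 and 0.67. *Postn* had 5127, 3266, 3256, 2083, 4381 and 5055 CPM in dKO tumours, against 3300, 3526, 3322, 3617, 2280 and 3796 CPM in WT tumours (log2 fold change 0.23). The WT values fell inside the wider dKO range. *Fbln1* had 55.4, 65.4, 58.5, 59.6, 34.7 and 75.3 CPM in dKO tumours, against 56.3, 43.1, 60.0, 55.7, 113 and 56.2 CPM in WT tumours (-0.24).

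*Lrrc15* had 216, 202, 72.1, 109, 45.0 and 67.4 CPM in dKO tumours, against 200.15, 172, 122, 199.8, 95.1 and 59.3 CPM in WT tumours (log2 fold change -0.60). Both genotypes held tumours with high and low values, and the fold change ran from -1.07 to 0.18 when 1 library was left out. That of *Fbln1* ran from -0.37 to 0.00088 in the same way. *Ltbp2* had 45.2, 43.1, 60.2, 148, 23.8 and 15.5 CPM in dKO tumours, against 48.1, 31.4, 37.4, 43.8, 106 and 14.7 CPM in WT tumours (-0.26), and its sign turned in a model without sex (0.05) or without batch (0.08). *Cthrc1* had 34.7, 17.6, 33.3, 26.0, 27.7 and 41.5 CPM in dKO tumours, against 24.0, 26.8, 21.7, 20.7, 25.9 and 16.7 CPM in WT tumours (0.44), with 4 dKO tumours above all WT tumours but 1 near the lowest. *Fap* ran from 36.7 to 81.9 CPM in dKO and from 36.3 to 60.4 CPM in WT (0.15), and *Pmepa1* from 131 to 263 CPM in dKO and from 154 to 246 CPM in WT (-0.13). *Comp* ran from 0.21 to 2.21 CPM in dKO and from 0.36 to 1.73 CPM in WT (-0.13), so that the WT ranges of these 3 genes lay within the dKO ranges or nearly so. Their signs turned as well, with *Fap* at -0.13 with the offset for transcript length, *Pmepa1* at 0.0199 in a model without sex, and *Comp* between -0.97 and 0.70 when 1 library was left out. The summed fibroblast markers ran from 15577 to 51469 CPM in dKO tumours, highest in replicate 6, and from 12324 to 21614 CPM in WT tumours. The summed skeletal muscle markers ran from 385 to 1473 CPM in dKO tumours and from 438 to 4387 CPM in WT tumours. Their part in the members' values was not tested. Of the lists beside the members none had a called gene in tumours, and all 15 contractile genes had negative fold changes, with a median of -0.35.

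**Figure D4:**
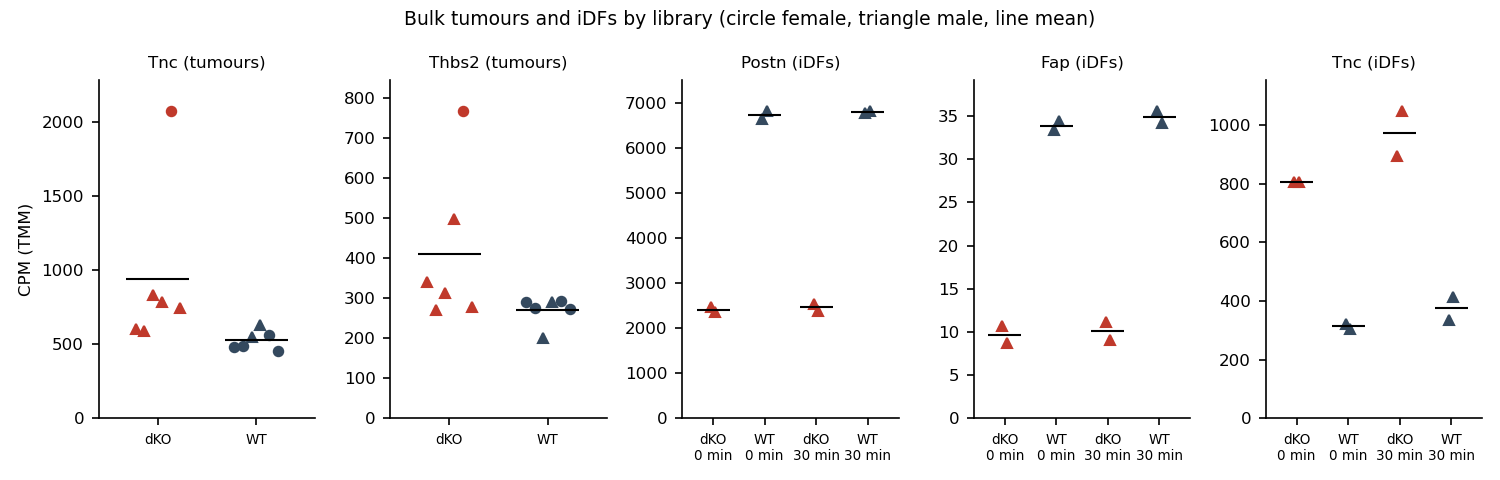
CPM (linear axis from 0) of *Tnc* and *Thbs2* in the 12 bulk tumours and of *Postn*, *Fap* and *Tnc* in the 8 iDF libraries at 0 and 30 min of serum, with dKO left of WT, circles for females, triangles for males and a line at the mean. The tumour groups overlap, with the dKO female at 2075 CPM for *Tnc*, while in iDFs *Postn* and *Fap* are lower and *Tnc* is higher in dKO at both times.

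Whether genotype acted alike in the 3 settings was tested as a difference between effects, each with its own dKO and WT libraries. For CAFs and iDFs, a joint fit pooled the spread between CAF mice with that between repeats of iDF cultures. On the iDF side its p-values therefore do not measure spread between animals, and genotype there cannot be told apart from the cell line. Of 17619 genes, 8.22% were called for the effect in CAFs minus the effect in iDFs without serum, 3.76% with a positive and 4.46% with a negative difference, and 5 of the 10 members were. *Fap* (difference 1.98 on the log2 scale, SE 0.20, adjusted p = 4.32e-05 from edgeR) and *Postn* (0.95, SE 0.19, adjusted p = 0.00555) had the more negative effect in iDFs. *Ltbp2* (-1.69, SE 0.22, adjusted p = 0.000330), *Pmepa1* (-1.37, SE 0.22, adjusted p = 0.00138) and *Lrrc15* (-1.79, SE 0.44, adjusted p = 0.0195 from edgeR) had the more negative effect in CAFs. The 2 genes of the TGF-beta and microfibril class thus differed between settings, being called lower in dKO CAFs while their fold changes in iDFs were positive and under the fold threshold.

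The other members did not pass this test. *Fbln1*, whose fold change was negative in both, had a difference of -1.01 (adjusted p = 0.120 from edgeR). *Tnc* had a difference of -2.35 (adjusted p = 0.143), which was -3.45 without CAF dKO replicate 2 (adjusted p = 0.00047 from edgeR). Without 1 of 3 iDF libraries in turn, *Lrrc15* did not pass (adjusted p 0.0693 to 0.101). CAFs and iDFs differ in culture, immortalization, sorting, sex and exposure to a tumour, and these cannot be told apart here.

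For the effect in CAFs minus the effect in tumours, 0.234% of 19207 genes were called and no member was. All 10 differences were negative, with a median of -0.91 against -0.03 over all tested genes. *Thbs2* (-1.33, adjusted p = 0.0961 from edgeR), *Fbln1* (-1.45, adjusted p = 0.196) and *Tnc* (-1.57) were among the largest, and *Tnc* passed without CAF dKO replicate 2 (-2.97, adjusted p = 0.0185 from edgeR). The wide spread among tumours limits this comparison.

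**Figure D5:**
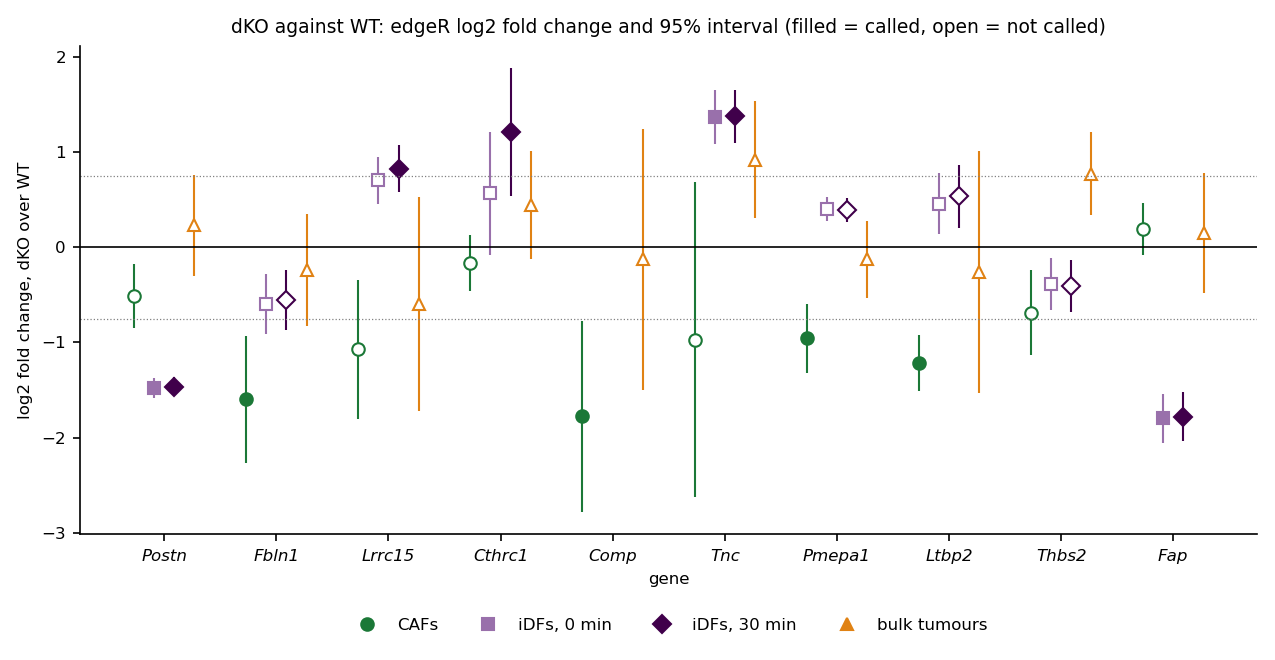
Log2 fold change of dKO over WT for each member with its 95% interval, in CAFs, bulk tumours and iDFs at 0 and 30 min; filled points were called by edgeR. *Ltbp2* (-1.22 in CAFs, 0.46 in iDFs at 0 min) and *Fap* (0.19 in CAFs, -1.80 in iDFs at 0 min) lie on opposite sides of 0 in these settings.

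The genes whose level over the 36 libraries was most like the members' mean profile were also found. The measure was Pearson's correlation of log2(TPM + 1) with the mean of the members' z-scores, over 14001 protein-coding candidates. It is a description across libraries of different cell types, which share cell type and not only gene regulation. *Bmp1* (r = 0.982), the procollagen C-proteinase gene, came first. *Adamts7* (0.979), a secreted metalloproteinase gene, *Col6a3* (0.978), *Dram1* (0.977) and *Igfbp7* (0.977) followed. *Bmp1* ran from 218 to 304 TPM in dKO CAFs and from 328 to 461 TPM in WT CAFs, with no overlap. In CPM, every dKO CAF library lay under every WT one for 6.87% of tested genes. In CAFs the dKO and WT ranges of *Adamts7*, *Col6a3*, *Dram1* and *Igfbp7* overlapped. The *Igfbp7* median was higher in dKO CAFs (5112 TPM, against 4730 TPM in WT CAFs). These CAF libraries also entered the correlation by which the genes were found. Among the members themselves *Lrrc15* (0.962) and *Tnc* (0.960) followed the mean profile most closely, and *Comp* (0.439) and *Cthrc1* (0.773) least. Each member is part of that mean, which raises its correlation, so these values cannot be set against those of the other genes.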

How the data were processed

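Poly-A RNA of 36 samples had been sequenced as single reads of 75 bases. By the paper's methods, tumours, CD8+ T cells and the fibroblast samples were prepared with different library kits. CAFs and iDFs shared a protocol but not the amount of RNA put in. Source and library preparation therefore cannot be told apart in levels and transcript shares. The authors quantified them with Salmon 1.2.1 on transcripts of GRCm38.p6. The deposited estimated counts per transcript are not normalized and not whole. The deposited TPM values are scaled by the authors' tool to transcript length and library total, and the deposited effective lengths are in bases. The members and the gene lists were chosen with earlier results of these data known.

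Counts of the transcripts of a gene were added up with Gencode release 21 (139791 of 140992 transcripts matched; 0.246% to 0.521% of counts were without a gene) and rounded, in Python 3.11.15 with pandas 2.3.3 and numpy 2.4.6. Genes passed filterByExpr by group (minimum count 10, minimum total 15) and were tested in R 4.3.3 with edgeR 4.0.16 (limma 3.58.1), with TMM factors and robust quasi-likelihood fits. CAFs were fitted with sex, tumours with batch and sex, and iDFs as 4 groups. Differences between experiments came from joint fits. CPM are TMM-normalized, intervals use the fit's degrees of freedom, and standard errors follow from its F values. The totals of 17526618 to 85432397 reads leave counting error small for all members but *Comp* and, in iDFs, *Cthrc1*. TPM sums per gene gave levels, and no test used them.

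The alternatives were DESeq2 1.42.0, RLE factors, no filter, no fold threshold, a transcript-length offset, models without sex or batch, a replicate block, fits of only the libraries compared, and each library left out. The members, the 2 targeted genes, the 3 called genes of each list with the largest folds at a log2 CPM of at least 2, and the 5 genes most like the members were named by rule. On simulated data with 100 genes changed at each fold, edgeR recovered 65% at a log2 fold of 1 and 91% at 2 in the CAF design over 15547 genes, 39% and 76% in the tumour design over 17837 genes, and 74% and 83% in the iDF design at 30 min over 14766 genes. For differences between effects it recovered 49% and 70% (CAFs minus iDFs) and 26% and 64% (CAFs minus tumours). False calls ran from 2 to 12 per design. Replicate numbers of iDFs were not treated as pairs, since deviations correlated at 0.02 to 0.13. Sequences came from RefSeq and Gencode files of GRCm38. An allele that all tumour-bearing mice shared and the result of 1 listed gene are not reported here.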

Additional observations from a re-analysis of the deposited data

Results flagged for a closer look

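In groups of 4 to 6 libraries, 14 of 60 member values at an end of a group stood farther from the next value than the group's range allows at the 95% level, where chance gives about 1 in 20. In CAFs these were *Tnc* in dKO replicate 2 (3324 CPM, next 807) and *Thbs2* in WT replicate 2 (1339 CPM). In tumours they were *Tnc* in dKO replicate 5 (2075 CPM), *Ltbp2* in dKO replicate 4 (148 CPM), and in WT replicate 5 *Postn* (2280 CPM, the lowest), *Fbln1* (113 CPM) and *Ltbp2* (106 CPM), with *Thbs2* lowest in WT replicate 3 (199.6 CPM). In CD8+ T cells, which served for levels only, dKO replicate 3 stood apart for *Fbln1* (0.689 TPM), *Lrrc15* (0.267 TPM), *Fap* (4.79 TPM) and, at the low end, *Pmepa1* (8.32 TPM). In the WT T cells *Fbln1* in replicate 1 (0.774 TPM) and *Ltbp2* in replicate 4 (0.894 TPM) stood apart.

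The effect of genotype differed between CAFs and iDFs without serum, by edgeR's test of the difference, for *Fap* (1.98), *Postn* (0.95), *Pmepa1* (-1.37), *Ltbp2* (-1.69) and *Lrrc15* (-1.79), all on the log2 scale as the CAF effect minus the iDF effect. That test pooled CAF mice with repeats of iDF cultures, in which genotype cannot be told apart from the cell line.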

How the results depend on the processing

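In CAFs 4 members and 865 genes were called. Without sex in the model these were 2 members and 386 genes, and without a fold threshold 1503 genes. *Fbln1* did not pass without the filter (adjusted p = 0.0664 from edgeR), *Ltbp2* without sex (0.0592), and *Comp* with the length offset (0.0565) or without sex (0.0674). Leaving out 1 library gave 2 to 5 members and 504 to 892 genes. In tumours no member and 8 genes were called. DESeq2 called 1 member and 190 genes, and 25 genes passed without the filter and 21 without sex. Leaving out 1 library gave 0 members and 4 to 13 genes. Tumour folds that turned sign were *Pmepa1* (0.0199 without sex), *Ltbp2* (0.047 without sex, 0.0800 without batch) and *Fap* (-0.13 with the length offset). On leaving out 1 library, tumour folds ran from -0.37 to 0.00088 for *Fbln1*, from -1.07 to 0.18 for *Lrrc15* and from -0.97 to 0.70 for *Comp*, each highest without dKO replicate 5, and from -0.0711 without dKO replicate 6 to 0.39 for *Fap*. The causes were not tested.

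In iDFs, dropping the fold threshold gave 8 members and 4729 genes at 0 min (3 and 1361 with it), 9 and 4781 at 30 min (5 and 1348), and for serum 1452 genes in dKO (493) and 745 in WT (294). Leaving out 1 library gave 3 to 4 members and 1091 to 1400 genes at 0 min, 4 to 5 and 1090 to 1337 at 30 min, 222 to 564 genes for serum in dKO, 124 to 321 in WT and 2 to 6 for the interaction. At 0 min *Ltbp2* passed with the length offset (0.77, adjusted p = 0.0387 from edgeR), and *Lrrc15* without WT replicate 1 (0.80) or dKO replicate 2 (0.83). The interaction of genotype and serum gave 2 genes, and 7 with DESeq2, 7 without the filter and 6 with the replicate block. The block left the counts of members in iDFs as they were (3 at 0 min and 5 at 30 min), with 1437 genes called at each time.

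For CAFs minus iDFs, 1448 genes were called, and 2536 without the fold threshold. *Lrrc15* did not pass without the filter (adjusted p = 0.0673 from edgeR). Leaving out 1 library, added after seeing the data, gave 4 to 6 members and 894 to 1583 genes, and the difference of *Comp* ran from -0.90 to 0.15. For CAFs minus tumours DESeq2 called 2 members and 313 genes (0 and 45 with edgeR), and leaving out 1 library gave 0 to 1 members and 15 to 53 genes. There *Fap* turned sign with the length offset (0.17), and ran from -0.27 to 0.14 when 1 library was left out. On the CPM scale no ratio of levels between WT groups turned sign, but some changed in size. On the log2 scale *Postn* in WT CAFs over WT iDFs without serum was -0.28 in TPM and -0.0023 in CPM, so that its lead in iDFs rests on the scale. Over WT tumours the CAF ratio was 0.41 in TPM and 1.04 in CPM for *Postn*, and 1.82 and 0.97 for *Pmepa1*.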

Other observations

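Transcript use of further members differed between sources by the Salmon estimates, given here as medians over libraries of the share of a gene's TPM, with no test. Library kit or RNA input differed between these sources as well, so that source and library preparation cannot be told apart. *Tnc* was read mostly as Tnc-204, which held 87.3% in dKO CAFs, 90.1% in WT CAFs, 79.3% in dKO iDFs without serum and 84.8% in WT iDFs. In tumours Tnc-201, with 25 exons against 26 in Tnc-204, held more, at 46.0% in dKO and 54.6% in WT. *Pmepa1* divided between Pmepa1-201 and Pmepa1-203 in the fibroblast libraries, with Pmepa1-201 at 44.5% in dKO CAFs and 47.9% in WT CAFs, while in tumours it held 93.6% in dKO and 93.2% in WT. For *Fap* a transcript annotated as non-coding, Fap-205, held 28.5% in dKO CAFs and 30.2% in WT CAFs, and 7.34% in dKO iDFs and 13.0% in WT iDFs.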
